A study of Mus musculus with 32 samples.

Results

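To see how WT liver responds to interruption of the enterohepatic circulation of BAs, hepatic gene expression was compared between male WT mice fed SC-435 and male WT mice fed chow. The comparison used 7 of the 32 liver libraries of the series, 4 from SC-435-fed mice and 3 from chow-fed mice, and covered all expressed genes. The mice were C57BL/6 WT males, and livers were taken at 12 weeks of age, frozen and profiled by sequencing of poly-A-selected RNA. SC-435, an IBAT inhibitor, was given as 0.006% of the diet, about 11 mg/kg/day. According to the sample labels the switch to this diet came 3 weeks after weaning, whereas the study's scheme places it at weaning. Neither group carried a transgene or a deletion. Nothing in the labels says whether the mice came from separate cages or litters, so the p-values measure the spread between these animals only. Where responses in other mice are given, they come from 8 female WT mice and from 8 male *Cyp2c70* KO mice, in each case 4 on chow and 4 on SC-435, and the KO mice carry a deletion of exon 2 of *Cyp2c70* in a single founder line.

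BAs are made from cholesterol in hepatocytes, secreted into bile and taken back up in the ileum by IBAT, so that most of the pool returns to the liver. BAs that reach ileal cells activate the nuclear receptor FXR, which induces the hormone FGF15, and FGF15 acts on hepatocyte FGFR4 and beta-Klotho to repress *Cyp7a1*, the rate-limiting enzyme of BA synthesis. When hepatocyte cholesterol is drawn down, the membrane-bound transcription factor SREBP2 is released and switches on the genes of cholesterol synthesis and LDL uptake.

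The 7 libraries held between 36476021 and 44573423 counted reads. The fourth male WT chow library (replicate 1) was left out because of its composition. Its TMM factor was 0.678 against 1.03 to 1.10 in the other 7 male WT libraries, it detected 17703 genes against 21274 to 22200, and mitochondrial genes took 1.61% of its reads against 4.37% to 5.68%. Among the libraries kept, SC-435 replicate 4 stood apart from the other 3 SC-435 libraries, with a chi-square per gene of 276 to 320 against each of them, where the other pairs within a group gave at most 61.3. The summed level of 23 acute phase genes was 92936 CPM (reads of a gene relative to the library's TMM-scaled total) in that library, 16816 to 20013 in SC-435 replicates 1 to 3 and 17996 to 19407 in the chow libraries. Results are therefore also given without it where it matters.

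Of 54532 genes in the table, 27409 had no read in any of the 7 libraries and 15577 were tested. A gene is said here to pass the test, and to have risen or fallen, where its adjusted p lay under 0.05, and it counts as called where its log2 fold change was also beyond 1. On SC-435, 105 genes were called higher, or 0.674% of those tested, and 55 were called lower, or 0.353%. With a fold change of any size, 220 genes rose (1.41%) and 174 fell (1.12%). All 160 called genes had levels that did not overlap between the diets, as did 18.3% of all genes tested. The median log2 fold change was 1.52 over the genes called higher and −1.83 over those called lower, whereas the median over all genes was −0.00. Protein-coding genes made up 89 of the genes called higher and 40 of those called lower.

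How many genes were called depended on single libraries. Without chow replicate 3, 24 genes were called higher and 11 lower, and without chow replicate 4 the counts were 46 and 34. Without SC-435 replicate 1 they were 56 and 29, and without SC-435 replicate 2 they were 46 and 21. Leaving out SC-435 replicate 4 instead raised them to 180 and 135, among them 99 of the 105 and 54 of the 55 genes called with it. Counts within many gene lists also grew in that fit, and they are to be read beside this general gain. The share of all genes that passed there at any fold change is not given here. Of 84 genes named below that passed the test, 58 did not pass without chow replicate 3, and 26 passed whichever library was left out. All of the 160 called genes that were still tested kept their direction when any of the 7 libraries was left out. Their levels did not overlap between the diets, so leaving out 1 mouse could hardly have turned them. Adding chow replicate 1 left 2 genes called higher and 4 lower. Of the called genes still tested, 100 of 103 and 54 of 54 kept their direction. That was largely set in advance, because they were called from the other 7 libraries of this fit. With that library included and each library weighted by its quality (limma voom), 203 were called higher and 182 lower.

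**Figure D1:**
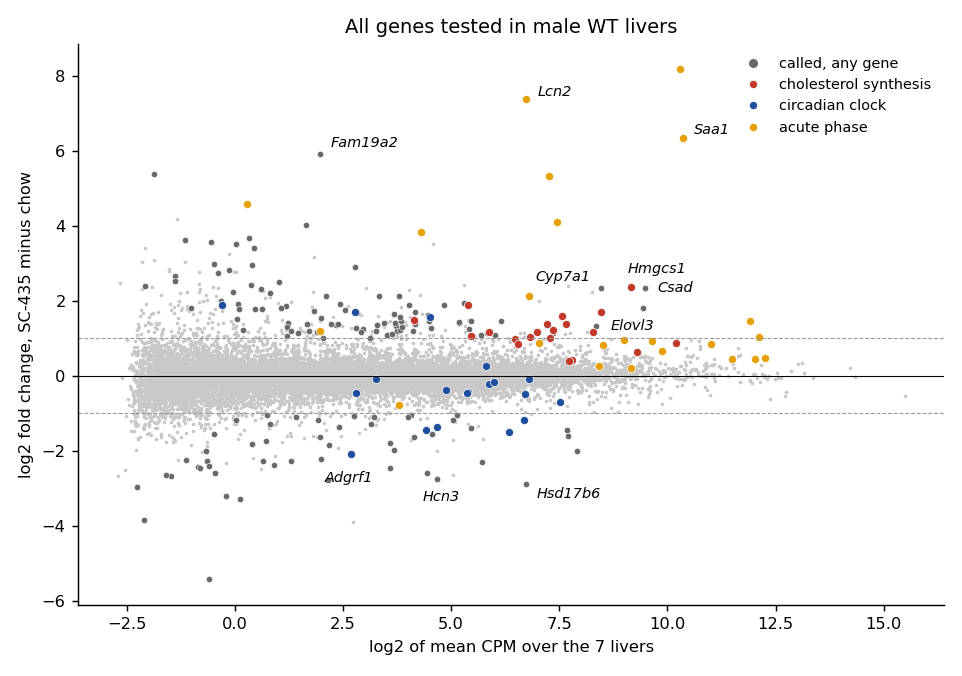
Change on SC-435 in male WT liver (log2 fold change, SC-435 minus chow, vertical axis) against mean level over the 7 libraries (log2 CPM, horizontal axis) for the 15577 genes tested. Dark grey points are the 160 called genes, coloured points are members of gene lists, and dashed lines mark a log2 fold change of 1 in either direction. The cholesterol synthesis genes all lie above 0, up to 2.37 for *Hmgcs1*.

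The genes of cholesterol synthesis rose as a group on SC-435. Of the 20 genes of the pathway, 17 rose, 13 of them past a log2 fold change of 1, and none fell, beside 1.41% and 1.12% of all genes. The median over the 20 was 1.16, and the remaining 3 genes also had values above 0. With a single library left out, between 9 (without chow replicate 3) and 20 (without SC-435 replicate 4) of the 20 genes rose, the counts being 11 without chow replicate 4 and between 13 and 16 otherwise, and the median stayed between 1.06 and 1.22. With chow replicate 1 included, the median was 0.76 and 1 gene passed the test.

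*Hmgcs1*, which makes HMG-CoA at the head of the pathway, stood at 204, 116 and 188 CPM in the 3 chow libraries and at 859, 1036, 687 and 904 CPM in the 4 SC-435 libraries. Every SC-435 mouse was above every chow mouse, and SC-435 replicate 4 lay within the range of the other SC-435 mice. This was a 5.15-fold rise (log2 2.37, SE 0.23, adjusted p = 0.00265). *Mvd*, mevalonate diphosphate decarboxylase, was measured at 17.5, 12.6 and 19.2 CPM on chow and at 63.8, 74.5, 48.5 and 59.3 CPM on SC-435. Here too every SC-435 mouse exceeded every chow mouse, by 3.74-fold in the fit (log2 1.90, SE 0.18, adjusted p = 0.00265).

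The other members had smaller fold changes than these. *Sqle*, squalene epoxidase, went from 80.3, 58.4 and 94.8 CPM on chow to 214, 193, 165 and 239 CPM on SC-435. The groups were again separate (log2 1.38, SE 0.18, adjusted p = 0.00929). *Msmo1*, which removes the C4 methyl groups of the sterol, was at 169, 100.2 and 195 CPM against 504, 585, 494 and 422 CPM. It rose by 1.69 on the log2 scale (SE 0.22, adjusted p = 0.00929). *Hsd17b7*, a ketosteroid reductase of the same steps, had 76.1, 63.1 and 84.5 CPM on chow and a narrow range of 164, 165, 165 and 173 CPM on SC-435. That made it the gene of the pathway with the smallest p (log2 1.16, SE 0.11, adjusted p = 0.00253). *Cyp51*, the lanosterol demethylase, rose by 1.16 (SE 0.12, adjusted p = 0.00347) and *Fdft1*, squalene synthase, by 1.39 (adjusted p = 0.0043). *Mvk*, *Pmvk*, *Idi1*, *Fdps* and *Nsdhl* rose with log2 fold changes between 1.03 and 1.48, while *Acat2*, *Lss* and *Dhcr7* rose by less than 1, *Acat2* least at 0.86. The 3 members that did not pass the test were *Sc5d* (log2 0.64, adjusted p = 0.0658), *Ebp* (0.41, adjusted p = 0.0889) and *Tm7sf2* (0.41, adjusted p = 0.172).

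Because these genes moved together, the bases before their start sites are shown for 4 of them, *Hmgcs1* as the largest rise and *Msmo1*, *Mvd* and *Hsd17b7* as genes whose windows hold several copies of the same short motif. The sequences are those of RefSeq on GRCm38.p6, 250 bases upstream of the start, written 5′ to 3′ along the gene's own strand. Capitals mark CCAAT or its reverse complement ATTGG, the letters bound by NF-Y, a factor that works beside SREBP2, and in *Hmgcs1* also CACCCCAC, a core of the sterol regulatory element that SREBP2 binds.
Hmgcs1, chr13:119690101-119690350, + strand: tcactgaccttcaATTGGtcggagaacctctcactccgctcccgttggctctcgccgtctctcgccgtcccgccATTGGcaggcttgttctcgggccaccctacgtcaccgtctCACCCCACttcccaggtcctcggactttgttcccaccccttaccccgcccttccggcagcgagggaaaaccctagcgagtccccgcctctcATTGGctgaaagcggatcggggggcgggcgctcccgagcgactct
Msmo1, chr8:64733579-64733828, - strand: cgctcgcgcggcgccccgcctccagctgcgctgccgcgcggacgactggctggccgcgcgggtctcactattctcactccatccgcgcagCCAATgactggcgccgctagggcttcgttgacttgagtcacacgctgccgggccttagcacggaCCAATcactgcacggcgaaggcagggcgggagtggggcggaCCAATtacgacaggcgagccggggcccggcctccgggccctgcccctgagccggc
Mvd, chr8:122443423-122443672, - strand: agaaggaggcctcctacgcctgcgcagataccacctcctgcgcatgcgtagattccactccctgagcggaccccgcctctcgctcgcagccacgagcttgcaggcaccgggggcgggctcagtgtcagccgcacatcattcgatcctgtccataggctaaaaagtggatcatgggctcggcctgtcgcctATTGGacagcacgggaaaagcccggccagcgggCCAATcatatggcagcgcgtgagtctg
Hsd17b7, chr1:169969206-169969455, - strand: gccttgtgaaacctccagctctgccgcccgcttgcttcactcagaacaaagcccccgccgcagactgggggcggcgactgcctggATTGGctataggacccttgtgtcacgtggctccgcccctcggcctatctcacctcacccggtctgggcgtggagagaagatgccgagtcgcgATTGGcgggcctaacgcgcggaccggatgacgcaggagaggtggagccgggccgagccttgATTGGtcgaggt
RefSeq promoters could be matched for 15 of the 20 genes. CCAAT on either strand was found in 14 of the 15 genes (93.3%), whereas 37.5% of 27025 genes hold it in a window of the same length. CACCCCAC on either strand was found in 2 of the 15 (13.3%), *Hmgcs1* and *Acat2*, against 2.98% of all genes. These matches describe letters in a window and were not tested.

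**Figure D2:**
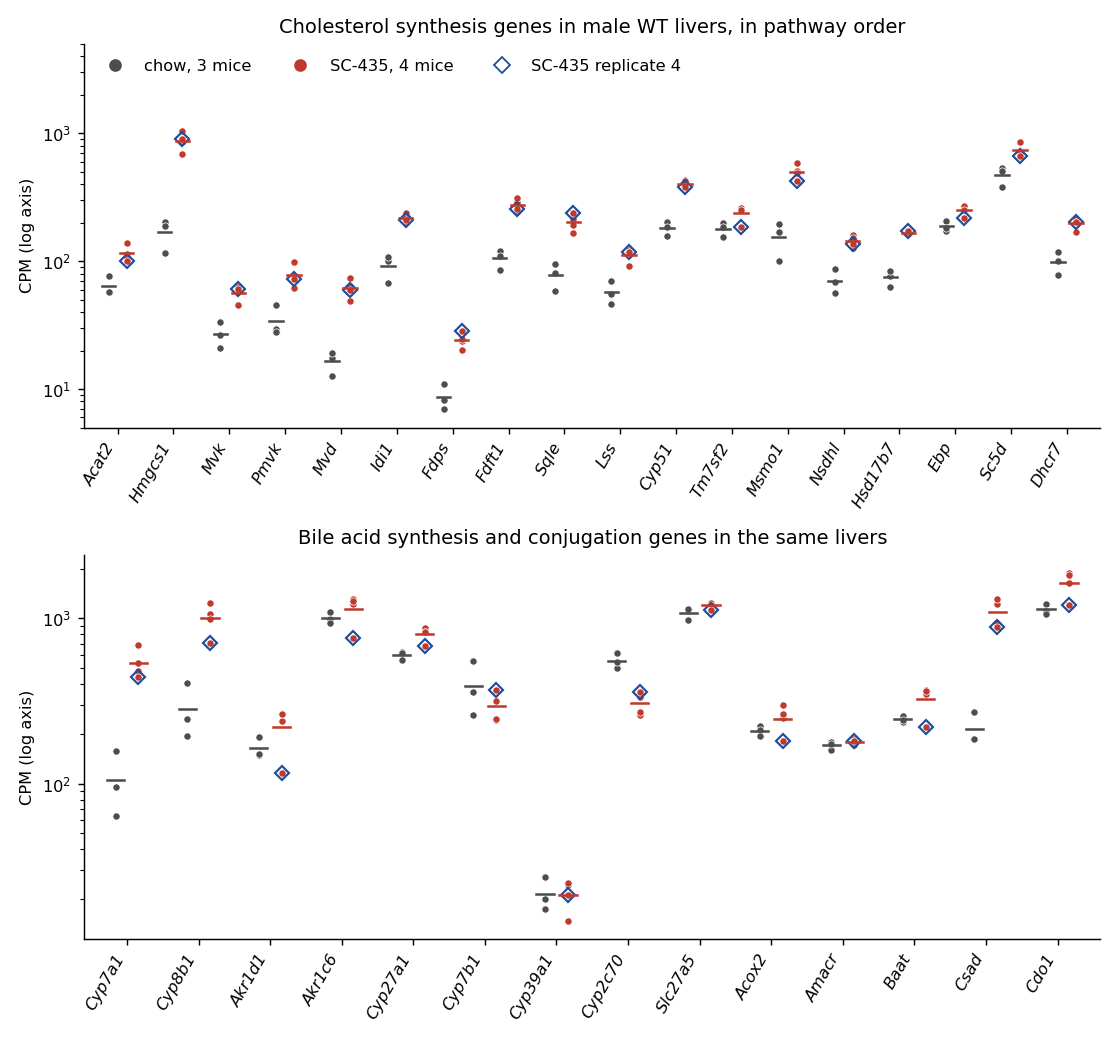
Level in each male WT mouse (CPM, log axis) of genes of cholesterol synthesis, in pathway order, and of genes of BA synthesis and conjugation. Grey points are the 3 chow mice, red points the 4 SC-435 mice, the blue diamond is SC-435 replicate 4, and bars are group means. *Hmgcs1*, *Cyp7a1*, *Cyp8b1* and *Csad* show no overlap between the diets, whereas *Tm7sf2* and *Cyp7b1* do.

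Around the pathway, the genes that control SREBP2 moved less than the synthesis genes. Of 15 tested genes of SREBP2 control and LDL uptake, 2 rose, none fell, and the median log2 fold change was 0.05. *Srebf2*, which encodes SREBP2, was at 70.6, 72.7 and 82.3 CPM on chow and at 122, 105, 114 and 134 CPM on SC-435. All SC-435 mice were higher (log2 0.66, SE 0.10, adjusted p = 0.0177). *Insig1*, which holds SREBP2 in the endoplasmic reticulum and is itself an SREBP2 target, rose from 283, 222 and 295 CPM to 475, 598, 546 and 478 CPM (log2 0.98, SE 0.14, adjusted p = 0.0128). Without chow replicate 3 the adjusted p was 0.116 for *Srebf2* and 0.0759 for *Insig1*, and for *Srebf2* it was 0.0734 without chow replicate 2 and 0.0521 without SC-435 replicate 1. None of 11 tested genes of sterol efflux and LXR targets passed the test, and their median was 0.03. The paired sterol transporters *Abcg5* and *Abcg8* had values of −0.52 (adjusted p = 0.113) and −0.61 (adjusted p = 0.0781), and their levels did not overlap between the diets.

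In BA synthesis 4 genes passed the test, *Cyp7a1* and *Cyp8b1* of the classic pathway and *Csad* of conjugation, which rose, and *Cyp2c70*, which fell. *Cyp7a1* (chr4:6265612-6275633 on GRCm38) was at 157, 63.8 and 95.5 CPM in chow-fed mice and at 688, 541, 481 and 441 CPM in SC-435-fed mice. Each of the 4 SC-435 mice was above each of the 3 chow mice. The fitted rise was 5.10-fold (log2 2.35, SE 0.30, adjusted p = 0.00844), and with any library left out the adjusted p was at most 0.039. *Cyp8b1*, the 12α-hydroxylase that sets the share of cholic acid, rose from 408, 194 and 247 CPM to 1063, 1240.1, 989 and 712 CPM, with its lowest SC-435 value in replicate 4. This was a log2 fold change of 1.82 (SE 0.28, adjusted p = 0.0163), and the adjusted p was 0.0845 without chow replicate 3, 0.0671 without chow replicate 4 and 0.0516 without SC-435 replicate 2. Those were the 2 of 6 genes of the classic pathway that rose, and all 6 had values above 0, with a median of 0.43. *Cyp27a1*, which oxidises the sterol side chain and also opens the alternative pathway, was at 629, 619 and 560.1 CPM on chow and at 880.2, 829, 832 and 684 CPM on SC-435. Its groups did not overlap either, but the change did not pass the test (log2 0.42, SE 0.12, adjusted p = 0.111). Without SC-435 replicate 4, 5 of the 6 genes rose, and the median was 0.57.

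Among the 6 tested genes of the alternative pathway none rose and 1 fell, and the median was −0.23. *Cyp7b1*, its oxysterol 7α-hydroxylase, ranged from 260.4 to 555 CPM on chow and from 243 to 371 CPM on SC-435, with overlap (log2 −0.41, adjusted p = 0.425). *Cyp2c70*, the enzyme that makes muricholic acids in mice, was the gene that fell. It was at 503, 548 and 614 CPM on chow and at 336, 261, 269.6 and 357 CPM on SC-435, so that every treated mouse was below every chow mouse. The log2 fold change was −0.86 (SE 0.14, adjusted p = 0.0197), with an adjusted p of 0.111 without chow replicate 3, 0.0713 without chow replicate 4 and 0.0626 without SC-435 replicate 2.

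Of 12 genes of side-chain shortening and conjugation, 1 rose. *Csad*, cysteine sulfinate decarboxylase, makes the taurine with which mouse BAs are conjugated. Its level was 270.4, 186 and 187 CPM on chow and 933, 1221, 1313 and 889.6 CPM on SC-435. The lowest treated mouse was far above the highest chow mouse, and the fitted change was 5.08-fold (log2 2.34, SE 0.21, adjusted p = 0.00212). Leaving out any library kept its adjusted p at or below 0.022. Without SC-435 replicate 4, 5 of the 12 genes rose and the median moved from 0.27 to 0.32.

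Among 13 tested transporters of BAs and bile, 1 rose. *Abcc4*, a basolateral export pump for BAs, was at 3.12, 2.87 and 3.46 CPM on chow and at 12.1, 11.1, 12.2 and 4.99 CPM on SC-435. SC-435 replicate 4 was well below the other treated mice and still above every chow mouse. The log2 fold change was 1.68 (SE 0.30, adjusted p = 0.0262), and the adjusted p lay between 0.0561 and 0.153 when any library other than SC-435 replicate 4 was left out. *Slc10a1*, the sodium-dependent uptake carrier (log2 −0.28, adjusted p = 0.398), and *Abcb11*, the canalicular BA pump (−0.13, adjusted p = 0.629), overlapped between the diets.

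None of the 12 tested genes of FXR and FGF receptor control passed the test, and their median was −0.07. *Nr0b2*, which encodes SHP, the FXR-induced repressor, was at 19.4, 27.1 and 35.8 CPM on chow and at 36.5, 40.9, 20 and 7.07 CPM on SC-435. The treated mice spread on both sides of the chow mice, and replicate 4 was lowest (log2 −0.07, SE 0.49, adjusted p = 0.953). Without replicate 4 the value was 0.24. *Nr1h4* (FXR), *Fgfr4* and *Klb* (beta-Klotho) had log2 fold changes of −0.19, −0.07 and −0.33, all with overlap. *Fgf15*, which the intestine makes, had no read in the 7 libraries.

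**Figure D3:**
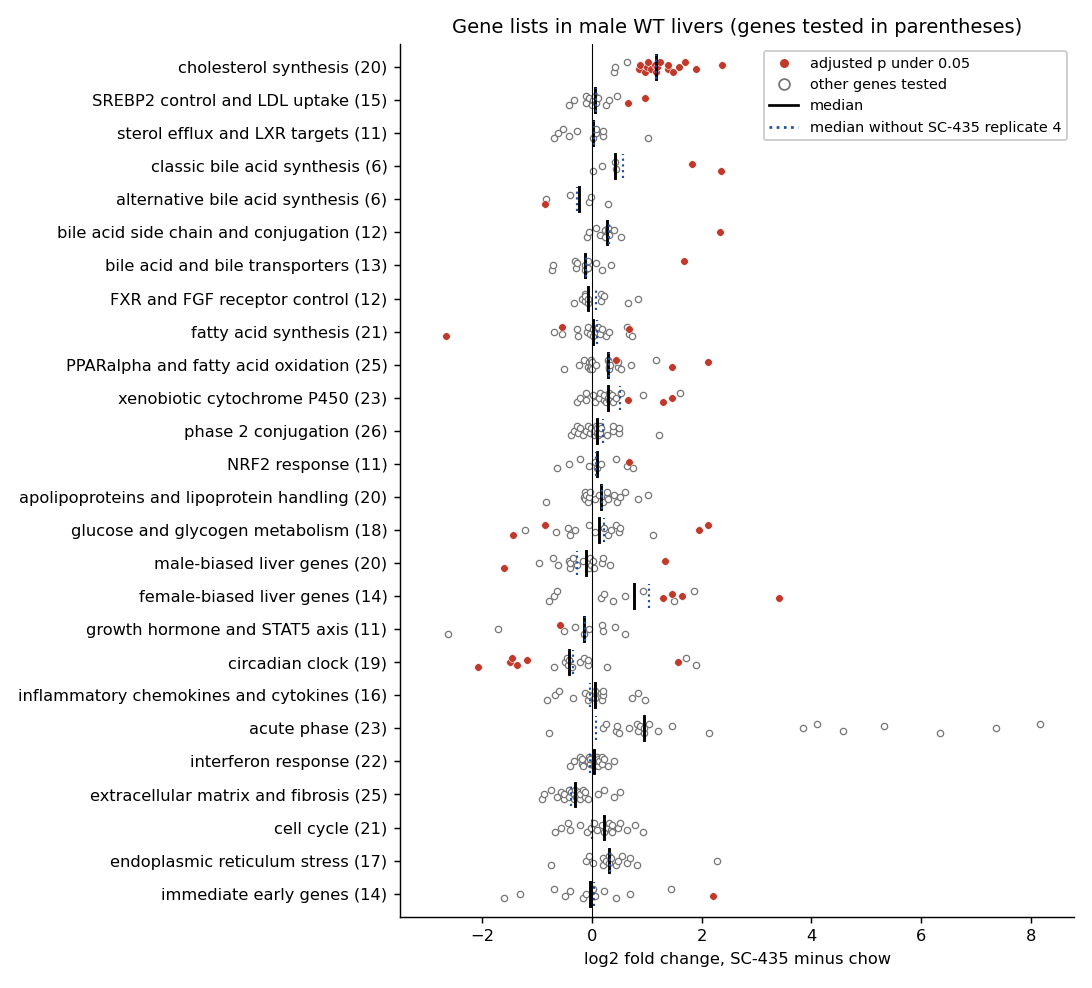
Log2 fold change (SC-435 minus chow) of each tested gene in 26 pathway lists. Red points passed the test at an adjusted p under 0.05, black bars are list medians and blue dotted bars the medians without SC-435 replicate 4. Cholesterol synthesis has 17 of 20 red points, and the acute phase list has none, with a median of 0.94 that becomes 0.07 without that library.

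Among the other lipid and glucose genes, changes were fewer and went both ways. Of 21 genes of fatty acid synthesis, 1 rose and 2 fell. *Agpat2*, which acylates lysophosphatidic acid on the way to triglyceride, rose from 149.6, 157 and 159 CPM to 244, 256, 236 and 253 CPM (log2 0.67, SE 0.08, adjusted p = 0.00769). *Mlxipl*, encoding the glucose-responsive factor ChREBP, fell by 0.55 on the log2 scale (adjusted p = 0.0365), and *Pnpla3*, a lipid droplet lipase, fell by 2.67 at levels of at most 1.22 CPM (adjusted p = 0.0486). Neither fall passed without chow replicates 2 or 3 or SC-435 replicates 1, 2 or 3, and *Pnpla3* also missed the threshold without chow replicate 4. The adjusted p was then at most 0.185 for *Mlxipl* and 0.145 for *Pnpla3*. Without SC-435 replicate 4 there were 3 genes higher and 2 lower, and without chow replicate 3 none in either direction. *Fasn* (log2 −0.03, adjusted p = 0.93), *Srebf1* (−0.69, adjusted p = 0.159) and *Scd1* (−0.54, adjusted p = 0.433) overlapped between the diets, and *Scd1* ranged from 3695 to 12957 CPM among the chow mice alone.

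*Pklr*, the liver pyruvate kinase and a ChREBP target, was at 419, 337 and 202 CPM on chow and at 118, 119.8, 129.8 and 103 CPM on SC-435. The chow mice were spread and the treated mice were close together below them (log2 −1.44, SE 0.21, adjusted p = 0.0136). The glycogen synthase gene *Gys2* fell by 0.85 (adjusted p = 0.0197), while *Igfbp1*, an insulin-repressed secreted protein, rose from 8.72, 18.4 and 17.6 CPM to 73.6, 73.6, 44.4 and 40.4 CPM (log2 1.96, SE 0.31, adjusted p = 0.0187). *Pdk4*, which blocks pyruvate oxidation, rose by 2.12 (SE 0.45, adjusted p = 0.0472). In all, 2 of 18 genes of glucose and glycogen metabolism rose and 2 fell. Each of these 4 genes missed the threshold in the fit without chow replicate 3, with adjusted p values of 0.0817 for *Pklr*, 0.119 for *Gys2*, 0.0817 for *Igfbp1* and 0.223 for *Pdk4*.

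Of 25 genes of PPARα and fatty acid oxidation, 3 rose, *Pdk4*, the fatty acid carrier *Cd36* (log2 1.46, adjusted p = 0.0197) and the mitochondrial acyltransferase *Cpt2* (0.44, adjusted p = 0.039). Outside the list, *Crat*, carnitine acetyltransferase, rose by 1.16 (adjusted p = 0.0043), a gene picked out after its values were seen. The number that rose was 6 without SC-435 replicate 4 and 1 without SC-435 replicate 3, and none rose when any of the other 5 libraries was left out. In the apolipoprotein list, none of 20 genes passed the test, whereas 4 rose without SC-435 replicate 4 and 4 with limma voom.

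Several genes of the circadian clock differed between the diets. Of 19 genes, 5 fell, 1 rose and the median was −0.43. *Per2*, a core repressor of the clock, was at 31.5, 39.6 and 46.4 CPM on chow and at 19.9, 13.4, 14.6 and 12.8 CPM on SC-435. The groups were separate (log2 −1.37, SE 0.17, adjusted p = 0.00844). *Dbp*, a clock output factor, was at 133, 122 and 129.9 CPM against 54, 50.1, 60.2 and 18.6 CPM (log2 −1.49, SE 0.32, adjusted p = 0.0467), and *Per3*, *Bhlhe40* and *Bhlhe41* fell by 1.45, 1.18 and 2.08. In the opposite direction, *Nfil3*, which competes with *Dbp* for the same sites, rose from 13.9, 10.6 and 8.1 CPM to 23.8, 37.5, 27.5 and 39.6 CPM (log2 1.56, SE 0.23, adjusted p = 0.0135). The activator *Arntl* had a value of 1.72 that did not pass the test (adjusted p = 0.054).

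The clock counts also varied with the libraries. Without chow replicate 3 no clock gene passed, without SC-435 replicate 2 there was 1 in each direction, and without SC-435 replicate 4 there were 7 lower and 2 higher. Counts were 2 lower and 1 higher without chow replicate 4, and 3 lower and 1 higher without chow replicate 2 or SC-435 replicate 1. In the same comparison in female WT mice, none of the 19 genes passed and the median was 0.06. The test of the difference in response between the sexes passed for none of the 19, so a difference between the sexes is not shown. In male KO mice 2 of the 19 rose, none fell and the median was 0.33. The difference in response between KO and WT males passed for 2 of the 19, *Nfil3* and *Nr1d2*. The hour at which livers were taken is not given in the sources used here. *Cyp7a1* is itself known to cycle over the day, and the part of these clock differences in the cholesterol and BA results was not tested.

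**Figure D4:**
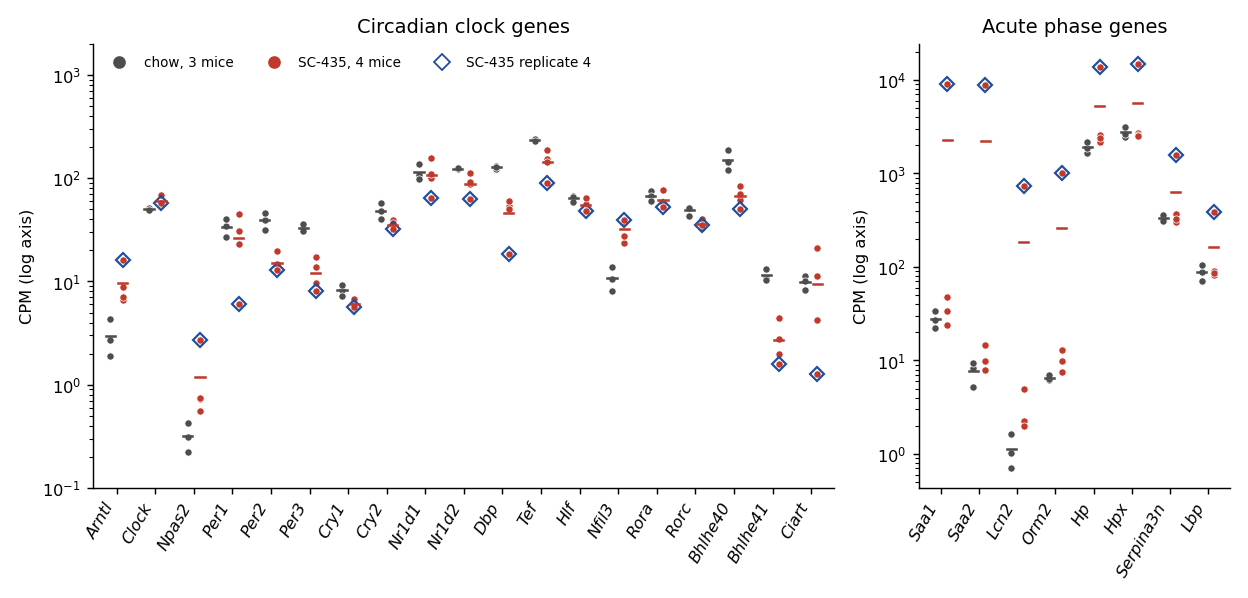
Level in each male WT mouse (CPM, log axis) of clock genes and of acute phase genes. Grey points are the 3 chow mice, red points the 4 SC-435 mice, the blue diamond is SC-435 replicate 4, and bars are group means. *Per2* is lower in all 4 SC-435 mice, whereas *Saa1* is at 8977 CPM in replicate 4 and at 24.2 to 47.8 CPM in the other 3.

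No acute phase gene passed the test in 23 tested, although the median log2 fold change of the list was 0.94. The liver makes these secreted proteins in large amounts during inflammation. *Saa1*, serum amyloid A, was at 22.1, 34 and 27.3 CPM on chow and at 47.8, 24.2, 33.7 and 8977 CPM on SC-435. Only SC-435 replicate 4 was high, and the fitted change of 6.35 had an SE of 2.33 (adjusted p = 0.19). *Saa2*, *Lcn2*, *Orm2* and *Hp* were likewise highest in that mouse, at 8776, 736, 1018 and 13884 CPM. Without it the median of the list was 0.07. None of 16 chemokine and cytokine genes, 22 interferon response genes, 25 matrix genes, 21 cell cycle genes or 17 endoplasmic reticulum stress genes passed the test. Without SC-435 replicate 4, 4 matrix genes, 1 interferon gene and 1 cell cycle gene fell. The chemokine and stress lists then had 1 gene higher and 1 lower each. The 27 listed matrix genes summed to 2721 CPM in replicate 4, 1334 to 1565 CPM in the other treated mice and 1978 to 2180 CPM on chow.

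The tissue label was checked with markers. The summed level of 15 hepatocyte markers, *Alb* and *Ttr* among them, was 89723 to 98312 CPM on chow, 78760 to 85897 CPM in SC-435 replicates 1 to 3 and 68719 CPM in replicate 4. No gene passed the test in any of 12 lists of cell type markers, which included cholangiocytes (14 tested), macrophages and Kupffer cells (18), stellate cells and fibroblasts (15) and endothelial cells (14). Without SC-435 replicate 4, 2 hepatocyte markers rose and 1 fell, while 2 stellate cell markers and 1 cholangiocyte marker fell. In that fit 1 adipocyte marker and 1 gallbladder or intestinal marker rose. Without SC-435 replicate 1, 1 acinar marker fell. The 16 cholangiocyte markers summed to 97.3 to 109.6 CPM on chow and 94.6 to 119 CPM on SC-435. The 19 macrophage markers summed to 422 to 623 CPM on chow and 502 to 597 CPM on SC-435. The acinar genes *Cpa1* and *Clps* and the intestinal genes *Fabp6*, *Cdx1* and *Cdx2* had no read. In bulk tissue, fewer cells of a type and less RNA per cell cannot be told apart.

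Sex-biased liver genes follow the male and female patterns of growth hormone secretion, and most of those tested did not pass. Of 25 listed female-biased genes, 14 had enough reads to be tested. Among these, 4 rose and none fell, with a median of 0.76. A gene near the floor on chow is tested only if it is higher on SC-435, which favours rises. *Slc22a26*, for example, had 3 to 14 reads on chow and 60 to 121 on SC-435. The median and the lack of falls are therefore not read as a shift of the list. *Cyp17a1*, a steroid hydroxylase, was at 4.86, 5.51 and 7.02 CPM on chow and at 15, 16.6, 15.6 and 25.3 CPM on SC-435. All treated mice were higher (log2 1.64, SE 0.21, adjusted p = 0.00913). *Slc22a26*, a member of an organic anion carrier family, went from 0.211, 0.332 and 0.0747 CPM to 1.69, 1.8, 3.06 and 2.39 CPM (log2 3.41, SE 0.43, adjusted p = 0.00844). Female WT mice on chow stood at 143 to 218 CPM for this gene, on a scale fitted over 24 libraries. The other 2 were *Cyp2c39* (log2 1.30, adjusted p = 0.0186) and *Cd36*. Reads of *Slc22a26* and of *Cyp2c39* may be shared with close paralogs. *Slc22a27* and *Slc22a29* were called higher as well, but each call was lost with 5 of the 7 libraries left out in turn. The adjusted p then reached 0.140 and 0.134, and *Slc22a27* had only 4 to 15 reads on chow. Single libraries moved the count of female-biased genes that rose between 1 (without chow replicate 3) and 6 (without SC-435 replicate 4), with 2 without chow replicate 2, chow replicate 4 or SC-435 replicate 2.

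Of 20 tested male-biased genes, 1 rose and 1 fell, and the median was −0.11. *Hsd3b5*, a male-specific steroid dehydrogenase, fell from 302, 319 and 394 CPM to 147, 119, 103 and 77.2 CPM. No treated mouse reached the chow range (log2 −1.60, SE 0.20, adjusted p = 0.00844). *Elovl3*, a fatty acid elongase that is also male-biased, rose from 188, 185 and 154 CPM to 431, 453, 454 and 426 CPM, with little spread among the treated mice (log2 1.33, SE 0.11, adjusted p = 0.00164). With chow replicate 1 included its value was −0.12. In the growth hormone and STAT5 list, *Igfals*, which carries IGF1 in serum, fell by 0.59 (adjusted p = 0.0221). The STAT5 targets *Cish* (log2 −2.63, adjusted p = 0.0989) and *Socs2* (−1.72, adjusted p = 0.0932) did not pass the test.

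Drug-metabolising genes rose in small number. Of 23 tested cytochrome P450 genes of xenobiotic metabolism, 3 rose, *Cyp2c39*, its paralog *Cyp2c38* (log2 1.46, adjusted p = 0.0294) and *Cyp3a13* (0.66, adjusted p = 0.0429), and the median was 0.29. In this list SC-435 replicate 4 was the library that differed, with a summed level of 15026 CPM against 25359 to 26311 CPM in the other treated mice and 18998 to 20549 CPM on chow. Without it, 10 of the 23 genes rose and the median was 0.51. No more than 1 rose when any other library was left out. Calls over all genes also grew without SC-435 replicate 4, from 105 to 180 higher. None of 26 phase 2 genes passed, but 5 rose without SC-435 replicate 4, where the median went from 0.08 to 0.20. Of 11 NRF2 response genes *Srxn1*, sulfiredoxin, rose by 0.67 (adjusted p = 0.00468).

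Among called protein-coding genes averaging 50 counts or more, the largest rise was that of *Fam19a2*, which encodes a small secreted protein of the TAFA family and lies at chr10:123263996-123741204 on GRCm38. It was near the limit of detection on chow, at 0.0528, 0.0475 and 0.224 CPM, and was at 7.09, 6.91, 8.06 and 4.88 CPM on SC-435. These are 2 to 9 reads on chow and 190 to 319 on SC-435. The gene was tested only because it was high on SC-435, and the floor leaves the size of its fold change uncertain. Each treated mouse was far above each chow mouse (log2 5.92, SE 0.42, adjusted p = 0.000953), and the adjusted p was at most 0.013 with any library left out. *Npnt*, the matrix protein nephronectin, rose by 2.96 (SE 0.45, adjusted p = 0.0163). *Osbpl3*, an oxysterol-binding protein, was at 2.3, 1.02 and 1.07 CPM on chow and at 13, 12.8, 12.7 and 4.96 CPM on SC-435. Treated replicates 1 to 3 were nearly equal, and replicate 4 lay below them (log2 2.90, SE 0.42, adjusted p = 0.0135).

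Other large rises were the corepressor *Hr* (log2 2.50), the nucleoside carrier *Slc28a1* (2.43) and *Themis* (2.31), known from T cell development, with adjusted p values of 0.0354, 0.022 and 0.0445. *Gadd45b*, a stress-inducible gene and the single member of 14 tested immediate early genes to pass, rose by 2.20 (adjusted p = 0.0221), and *Ddit4*, an mTORC1 inhibitor, by 2.12 (adjusted p = 0.0387), with 41.4 CPM in SC-435 replicate 1 and 12.5 to 15.7 CPM in the other treated mice. *Cdkn1a*, the cell cycle inhibitor p21, rose by 2.12 (adjusted p = 0.0449) and *Gdf15*, a secreted stress hormone, by 1.37 (adjusted p = 0.0472). These calls hung on single libraries. Those of *Hr*, *Slc28a1*, *Gadd45b*, *Ddit4*, *Cdkn1a* and *Gdf15* were each lost with 5 of the 7 libraries left out in turn, and that of *Themis* with 6. The adjusted p then reached 0.176, 0.0877, 0.127, 0.181, 0.169, 0.222 and 0.214, in that order. With chow replicate 1 included *Cdkn1a* had a value of −0.57. Smaller but tightly measured rises were those of *Clstn3* (log2 1.89, SE 0.13, adjusted p = 0.00095) and *Fam126a* (1.71, SE 0.15, adjusted p = 0.00212), genes picked out after their values were seen.

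Among the same genes the largest fall was that of *Hsd17b6*, a dehydrogenase of retinol and androgen metabolism. It was at 212, 259.9 and 154 CPM on chow and at 28.7, 37.6, 36.1 and 11.2 CPM on SC-435. Every treated mouse was far below the chow range, with replicate 4 lowest, and the fitted fall was 7.34-fold (log2 −2.88, SE 0.37, adjusted p = 0.00844). *Adgrf1*, an adhesion G protein-coupled receptor, went from 16.6, 24.4 and 26.2 CPM to 3.93, 3.77, 4.05 and 4.65 CPM. The treated mice were nearly equal, and the gene had an adjusted p of at most 0.013 with any library left out (log2 −2.45, SE 0.17, adjusted p = 0.00095). *Serpina9*, a serine protease inhibitor, fell by 2.76 (SE 0.23, adjusted p = 0.00164) and *Wnk4*, a kinase that regulates ion carriers, by 2.20 (SE 0.21, adjusted p = 0.00265).

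*Onecut1*, the hepatocyte transcription factor HNF6, was at 77.8, 121 and 89 CPM on chow and at 9.63, 7.48, 36.4 and 24.3 CPM on SC-435. Replicates 1 and 2 were lowest, and all were below the chow mice (log2 −2.30, SE 0.48, adjusted p = 0.044). This call was lost without any of chow replicates 2 to 4 or SC-435 replicates 1 and 2, with adjusted p values between 0.0869 and 0.192. *Ptgds*, prostaglandin D2 synthase (log2 −2.39), the G protein regulator *Rgs3* (−1.79), the lectin *Clec2h* (−1.63) and the MAP kinase phosphatase *Dusp4* (−1.62) fell too. The calls of *Ptgds* and *Clec2h* were each lost with 5 libraries left out in turn, that of *Dusp4* with 4 and that of *Rgs3* with 1, chow replicate 3. *Hcn3*, a cation channel, fell by 2.75 (SE 0.41, adjusted p = 0.0143), but its span at chr3:89146074-89160196 overlaps that of *Pklr* at chr3:89136142-89146784 on the opposite strand, and whether reads were counted by strand is not stated.

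Some called genes were neighbours. Within 20 kb of each other lay 10 pairs of called genes, and both members of all 10 changed in the same direction. The share of all tested neighbours that change in the same direction was not counted, so the pairs are only described. *Gm11798* lies 4646 bases from *Cyp7a1*, *Ackr2* 3281 bases from *Cyp8b1*, *3110045C21Rik* 167 bases from *Hsd17b7* and *Gm16551* 1786 bases from *Onecut1*. The call of *Ackr2* was lost with 5 of the 7 libraries left out in turn and that of *Gm11798* with 3. The adjusted p then reached 0.222 and 0.218. Those of *3110045C21Rik* and *Gm16551* were lost with 1, chow replicate 3. *Gm16551* was at 17.1, 28 and 22.1 CPM on chow and at 3.64, 4.5, 6.37 and 8.43 CPM on SC-435, below the chow range in every treated mouse (log2 −1.97, SE 0.27, adjusted p = 0.0112). The spans overlap in 1 of the 10 pairs, *Pklr* and *Hcn3* on opposite strands. Reads from their overlap cannot be told apart without a stated strand setting. The spans of the pairs named above do not overlap.

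Part of these changes were seen again in mice that share no library with the comparison. In female WT mice, SC-435 called 108 of 15739 genes higher (0.686%) and 65 lower (0.413%). Of the 105 genes called higher in males, 101 were tested in females, 93 had the same sign, 42 rose and 33 were called, that is 31.4% of the male list and 30.6% of the female list. Of the 55 genes called lower, 45 were tested, 37 had the same sign, 12 fell and 11 were called, or 20% and 16.9% of the lists. The medians of the male lists in females were 1.01 and −0.77.

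In male KO mice, 301 of 15984 genes were called higher (1.88%) and 730 lower (4.57%). There 61 of the 105 male WT genes were called higher, or 58.1% of the male WT list and 20.3% of the KO list, and 67 rose. Of the 55 genes called lower, 12 were called lower in KO mice, or 21.8% of the male WT list and 1.64% of the KO list. In all 3 comparisons 26 genes were called higher, among them *Cyp7a1*, *Cyp8b1*, *Csad*, *Abcc4*, *Hmgcs1*, *Msmo1*, *Nsdhl*, *Fam19a2*, *Slc28a1* and *Treh*, a trehalase. The genes called lower in all 3 were *Hsd17b6*, *Ptgds*, *Wnk4*, the metalloprotease *Adamts7* and *Spred1*, an inhibitor of Ras signalling.

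**Figure D5:**
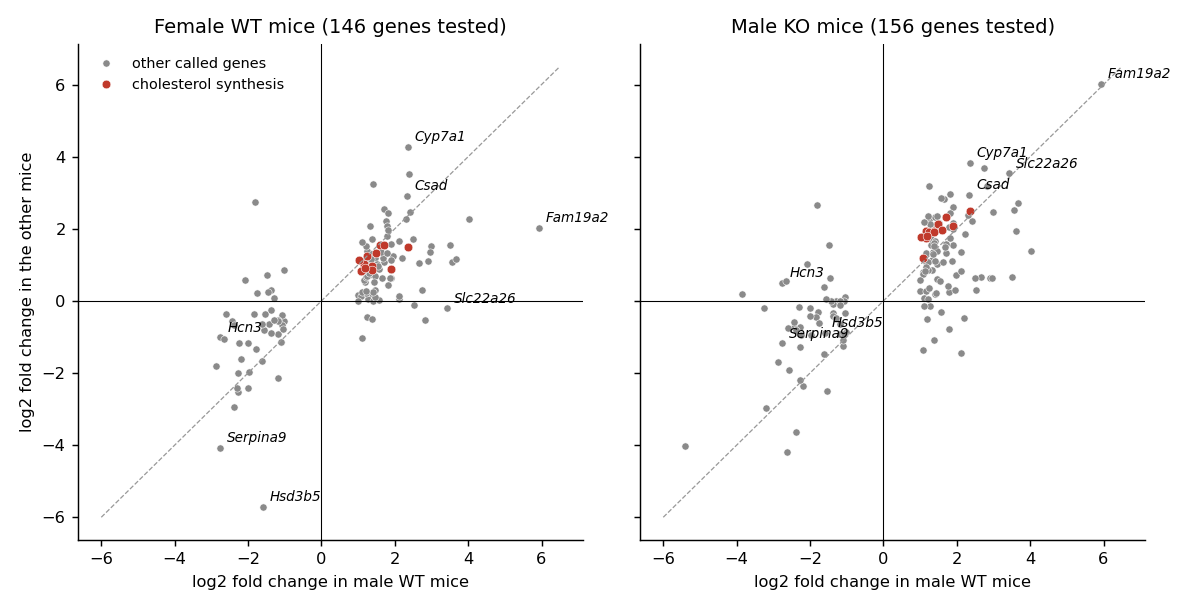
Log2 fold change (SC-435 minus chow) in female WT mice and in male KO mice, on the vertical axes, against that in male WT mice for the genes called in male WT mice and tested in the other group (146 and 156 genes). Red points are cholesterol synthesis genes, and the dashed line marks equal responses. *Fam19a2* lies close to that line in KO mice and below it in female mice.

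The response of the main genes in the other mice is given next. *Cyp7a1* rose by 4.28 on the log2 scale in female WT mice and by 3.83 in male KO mice, beside 2.35 in male WT mice, and neither difference passed the test (adjusted p = 0.169 and 0.131). *Cyp8b1* rose by 2.43 and 2.97, and *Csad* by 2.92 and 2.95. The cholesterol list had a median of 0.95 in female WT mice, with 9 of 20 genes rising, and of 1.78 in male KO mice, with all 20 rising. Over all genes tested and at any fold change, 2.4% rose and 1.88% fell in female WT mice, and 8.8% rose and 8.36% fell in male KO mice. *Hsd17b7* was the member whose response differed, by 0.75 more in KO than in WT males (adjusted p = 0.0481). *Cyp2c70* itself ranged from 513 to 736 CPM in the male WT chow mice, replicate 1 included, on the scale of the 24 libraries. On the same scale it was at 572 to 816 CPM in female WT chow mice and at 151 to 184 CPM in male KO chow mice. Counts are per gene, and which exons the reads of KO mice came from was not tested. On SC-435 *Cyp2c70* fell by 0.58 in female WT mice (adjusted p = 0.0382) and by 0.50 in male KO mice (adjusted p = 0.0225).

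A test of the difference in response between female and male WT mice passed for 15 of 16661 genes (0.09%), 7 with a higher and 8 with a lower value in females. The smallest p belonged to *Adh6-ps1*, a pseudogene of the alcohol dehydrogenase family that was picked out after its values were seen and whose reads may be shared with its paralogs. It fell by 1.38 in males, had a value of 0.31 in females (adjusted p = 0.119) and differed by 1.70 (adjusted p = 0.000355). The genes named next are protein-coding. *Fam19a2* rose by 2.03 in females, from 2.39 to 6.34 CPM on chow to 16.5 to 19.7 CPM on SC-435, a response 3.88 lower than in males (adjusted p = 0.00782). *Slc22a26* did not rise in females (log2 −0.20, adjusted p = 0.637), a difference of −3.60 (adjusted p = 0.00782), and *Slc22a27* differed by −3.37. In male WT mice on chow *Fam19a2*, *Slc22a26* and *Slc22a27* had at most 9, 14 and 15 reads, so the sizes of these differences are uncertain. *Adgrf1* differed by 1.89, with a value of −0.57 in females (adjusted p = 0.119). *Ick*, a kinase of cilia, and *Cdk6*, a cell cycle kinase, differed by −0.82 and 0.82 and did not pass the test in male WT mice. The number of such genes ranged from 2 without chow replicate 3 of the male WT mice to 121 without female chow replicate 4, and was 9 without male chow replicate 2 and 72 without male SC-435 replicate 3.

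Between male KO and male WT mice, the response differed for 118 of 16932 genes (0.697%), 51 with a higher and 67 with a lower value in KO mice. Of these, 34 had passed the test in male WT mice. *Stard4*, a sterol carrier, had a value of −0.41 in WT mice (adjusted p = 0.114) and rose by 0.87 in KO mice, a difference of 1.26 (adjusted p = 0.00147). *Ccl2*, a monocyte chemokine, and *Mmp12*, a macrophage protease, were at 0.185 to 0.411 CPM and 0.224 to 0.36 CPM in all 7 WT mice. In KO mice they fell from 3.58 to 7.62 CPM and from 8.54 to 24.0 CPM on chow to at most 0.437 and 0.621 CPM on SC-435. The differences were −3.94 and −5.33 (adjusted p = 0.00147 for both).

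Some genes that changed in WT males differed in KO males. *Pklr* was −1.44 in WT mice and 0.00 in KO mice, a difference of 1.41 (adjusted p = 0.0366), and *Gys2* differed by 1.25 (adjusted p = 0.0138). *Gadd45b*, *Nfil3*, *Cdkn1a* and *Gdf15* had responses lower in KO than in WT mice by 2.70, 1.90, 3.60 and 2.46 on the log2 scale. *Hcn3* differed by 3.22 and *Adgrf1* by 1.70. *Fasn*, which did not pass in WT mice, rose by 1.08 in KO mice, and the difference of 1.09 passed the test (adjusted p = 0.0453). The number of genes that differed between the genotypes hung on single libraries. It was 10, 3 and 38 without chow replicates 2, 3 and 4 of the WT mice, and 31, 23 and 206 without their SC-435 replicates 1, 2 and 3. Among the KO mice it was 241, 300 and 41 without chow replicates 1, 2 and 3, and 21, 12, 56 and 27 without SC-435 replicates 1 to 4.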

How the data were processed

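Liver RNA was sequenced in all samples, and the deposited values used here are whole-number read counts per gene, made by the authors and neither normalized nor logged. According to the submitters' processing notes the tools were HISAT2 2.0.5, featureCounts 1.5.0-p3 and DESeq2 1.20.0 on mm10. The strand setting of the counting is not given in the sources used here. The 32 FPKM columns and the 35 columns of the authors' own fold changes and p-values were not used.

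Genes were kept by filterByExpr, normalized by TMM and tested with the quasi-likelihood test of edgeR 4.0.16 in R 4.3.3, comparing SC-435 replicates 1 to 4 with chow replicates 2 to 4. Adjusted p is the Benjamini-Hochberg value over all genes tested. The test was also run on simulated counts, with an outcome that is not given here. The SE is the log2 fold change divided by the square root of F. Differences between sexes or genotypes were tested as interactions with diet in 15 libraries each. Alternatives were DESeq2 1.42.0, limma voom 3.58.1, other scalings and filters, a replicate block and other sets of libraries.

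Genes named were the 12 largest rises and the 12 largest falls (called and protein-coding, averaging 50 counts or more, diets not overlapping), a list of BA and lipid genes, up to 4 genes that passed in each list and the first 6 protein-coding genes for each interaction. The rest, including the other genes of cholesterol synthesis and those of the acute phase, were chosen after their values were seen. The groups, the 38 gene lists (651 of 655 entries matched a gene of the table) and the library left out were chosen with earlier results of these data known. Promoters are from RefSeq, GRCm38.p6, matched by symbol. Some genes of these lists are not reported here by name.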

Additional observations from a re-analysis of the deposited data

Results flagged for a closer look

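In groups of 4 mice, a single mouse that stands far from the others was looked for by the ratio of its gap from the nearest mouse to the whole range (Dixon's ratio, which chance takes past its limit in about 1 in 20 groups). Among the male WT mice on SC-435 this was met by replicate 4 for *Saa1* (ratio 0.997), *Saa2* (0.999), *Lcn2* (0.996), *Orm2* (0.995), *Hp* (0.968), *Osbpl3* (0.972), *Tm7sf2* (0.912), *Cpt2* (0.910), *Abcc4* (0.848) and *Cyp17a1* (0.845). Replicate 3 met it for *Ptgds* (0.897), *Gadd45b* (0.880), *Hcn3* (0.867) and *Lss* (0.839), and replicate 1 for *Ddit4* (0.891). In 10 of these 15 genes the mouse that stood apart was replicate 4, and 5 of the 10 are acute phase genes chosen after their values were seen. The named genes that were tested numbered 119, so some of the 15 may have passed the limit by chance.

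The response to SC-435 differed between female and male WT mice for *Fam19a2* (female minus male, log2 −3.88), *Slc22a26* (−3.60), *Slc22a27* (−3.37), *Adgrf1* (1.89), *Ick* (−0.82) and *Cdk6* (0.82), each by the test of the interaction.

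It differed between KO and WT males, by the same kind of test, for the inflammatory genes *Mmp12* (KO minus WT, log2 −5.33) and *Ccl2* (−3.94). Genes with a lower response in KO mice were *Cdkn1a* (−3.60), *Gadd45b* (−2.70), *Gdf15* (−2.46), *Nfil3* (−1.90), *Lrp11* (−1.73) and *Srxn1* (−1.01). Genes with a higher response in KO mice were *Hcn3* (3.22), *Adgrf1* (1.70), *Pklr* (1.41), *Stard4* (1.26), *Gys2* (1.25), *Pcsk4* (1.15), *Fasn* (1.09), *Nr1d2* (0.99), *Ngef* (0.95), *Igfals* (0.77), *Hsd17b7* (0.75) and *Nr1h4* (0.61).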

How the results depend on the processing

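The number of genes called changed with the libraries, the tool and the filter. Against 105 genes called higher and 55 lower, DESeq2 gave 190 and 104, limma voom with quality weights 186 and 158, no filter on low counts 169 and 90, chow replicate 1 included 2 and 4, and chow replicate 1 with voom, an alternative added after seeing the data, 203 and 182. DESeq2's size factors gave 107 and 55, and total counts 95 and 68. Leaving out 1 library at a time gave 24 to 180 and 11 to 135. The interaction with sex passed for 15 genes and gave 413 with DESeq2, 226 with voom, 51 without a filter, 25 with a mean of at least 50 counts, 7 with chow replicate 1, 212 with it and voom, and 2 to 121 with 1 library left out. The interaction with genotype passed for 118 genes and gave 42 with total counts, 925 with DESeq2, 344 with voom, 263 without a filter, 15 with chow replicate 1, 468 with it and voom, and 3 to 300 with 1 library left out. The cause was not tested, apart from the number of genes tested and of samples, which the filters and left-out libraries change.

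The replicate numbers do not pair the mice by the labels. The correlations between same-numbered chow and SC-435 mice were 0.132, 0.051 and 0.078, and each was the highest for its mouse, which is a hint from the data only. With a replicate block 77 genes were called higher and 35 lower, and the interactions passed for 6 (sex) and 10 genes (genotype).

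Of 84 named genes that passed the test, 26 also passed with each of the 7 libraries left out in turn, and all 84 kept their sign. For a gene whose levels do not overlap between the diets, leaving out 1 library can hardly turn the sign. Signs turned with chow replicate 1 included for *Cyp27a1* (−0.0222), *Agpat2* (−0.0148), *Cpt2* (−0.0160), *Elovl3* (−0.12), *Cdk6* (0.0921), *Tm7sf2* (−0.29), *Ebp* (−0.30) and *Cdkn1a* (−0.57). Under voom they turned for *Nr0b2* (0.21) and *Fasn* (0.000368), and with chow replicate 1 as well for the same genes (0.19 and 0.000788). With 1 library left out *Nr0b2* ranged from −0.38 (without SC-435 replicate 2) to 0.24 (without SC-435 replicate 4), *Fasn* from −0.14 (without chow replicate 3) to 0.0674 (without chow replicate 4) and *Ccl2* from −0.18 (without chow replicate 2) to 0.22 (without chow replicate 3). Of the called genes, 17 higher and 16 lower averaged under 50 counts and rest on the fewest reads.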
